A study of Mus musculus with 2 samples.

Results

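The genes described here are 10 genes that place, keep or remove methyl groups on DNA, read across the cell classes of the mouse kidney cortex. They were chosen by name, as the rows for Dnmt1, Uhrf1, Dnmt3a, Dnmt3b, Tet1, Tet2, Tet3, Tdg, Gadd45a and Gadd45b among the 31053 genes of the count tables, and all 10 were present in both libraries. The study made 1 single-cell RNA library from mice that express the endonuclease I-PpoI in proximal tubular epithelial cells (PT I-PpoI) and 1 from wild-type mice, both from the kidney cortex at 16 weeks of age. I-PpoI is a homing endonuclease that cuts DNA at its own recognition sequence. The promoter or Cre line that drives the enzyme, the sex and the number of mice per library are not given in the sources used here, and neither table has a row for the enzyme. Cortex was digested enzymatically at 37 °C and loaded as a single-cell suspension.

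In mammals a methyl group on cytosine is written by DNMT3A and DNMT3B at new sites and copied after replication by DNMT1, which UHRF1 brings to half-methylated DNA. TET1, TET2 and TET3 oxidise methylcytosine, TDG cuts out the oxidised base for base excision repair, and GADD45 proteins have been linked to this removal besides their roles in stress and DNA damage responses. DNMT1 and UHRF1 are known as genes of replicating cells, and GADD45A is a known target of p53.

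The PT I-PpoI library gave 5107 cells with a median of 11127 UMIs (unique molecules counted), and the wild-type library gave 11958 cells with a median of 2693 UMIs. The libraries shared 22 cell barcodes, which is 0.431% of the PT I-PpoI cells and 0.184% of the wild-type cells. Cells were grouped by clustering that did not use the 10 genes, and classes were named after marker genes, with "like" added because the names rest on markers alone. Of 20 named classes, 13 had 50 or more cells in each library and were compared. All markers of each compared class were read in both libraries. The summed cDC (conventional dendritic cell) markers had 635 and 690 CPM (counts per 1000000 UMIs of the class) in PT I-PpoI and wild-type cDC-like cells, beside 1150 and 598 CPM of cycling markers and 29.7 and 1008 CPM of PT (proximal tubule) markers. In parietal-like cells, PT markers summed to 2850 CPM in PT I-PpoI and 4763 CPM in wild type, above the class's own markers at 1534 and 1447 CPM.

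With 1 library per genotype no difference between them has a replicate check, and no p-value is given. Levels are CPM of a class with exact Poisson 95% intervals, ratios are log2 of PT I-PpoI over wild type, and all intervals cover counting error only. A gene was counted as higher or lower when the 2 libraries differed by 2-fold or more with at least 10 UMIs over both. Counts come from the 3′ ends of transcripts, so levels are compared between classes and libraries for 1 gene, never between genes.

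**Figure D1:**
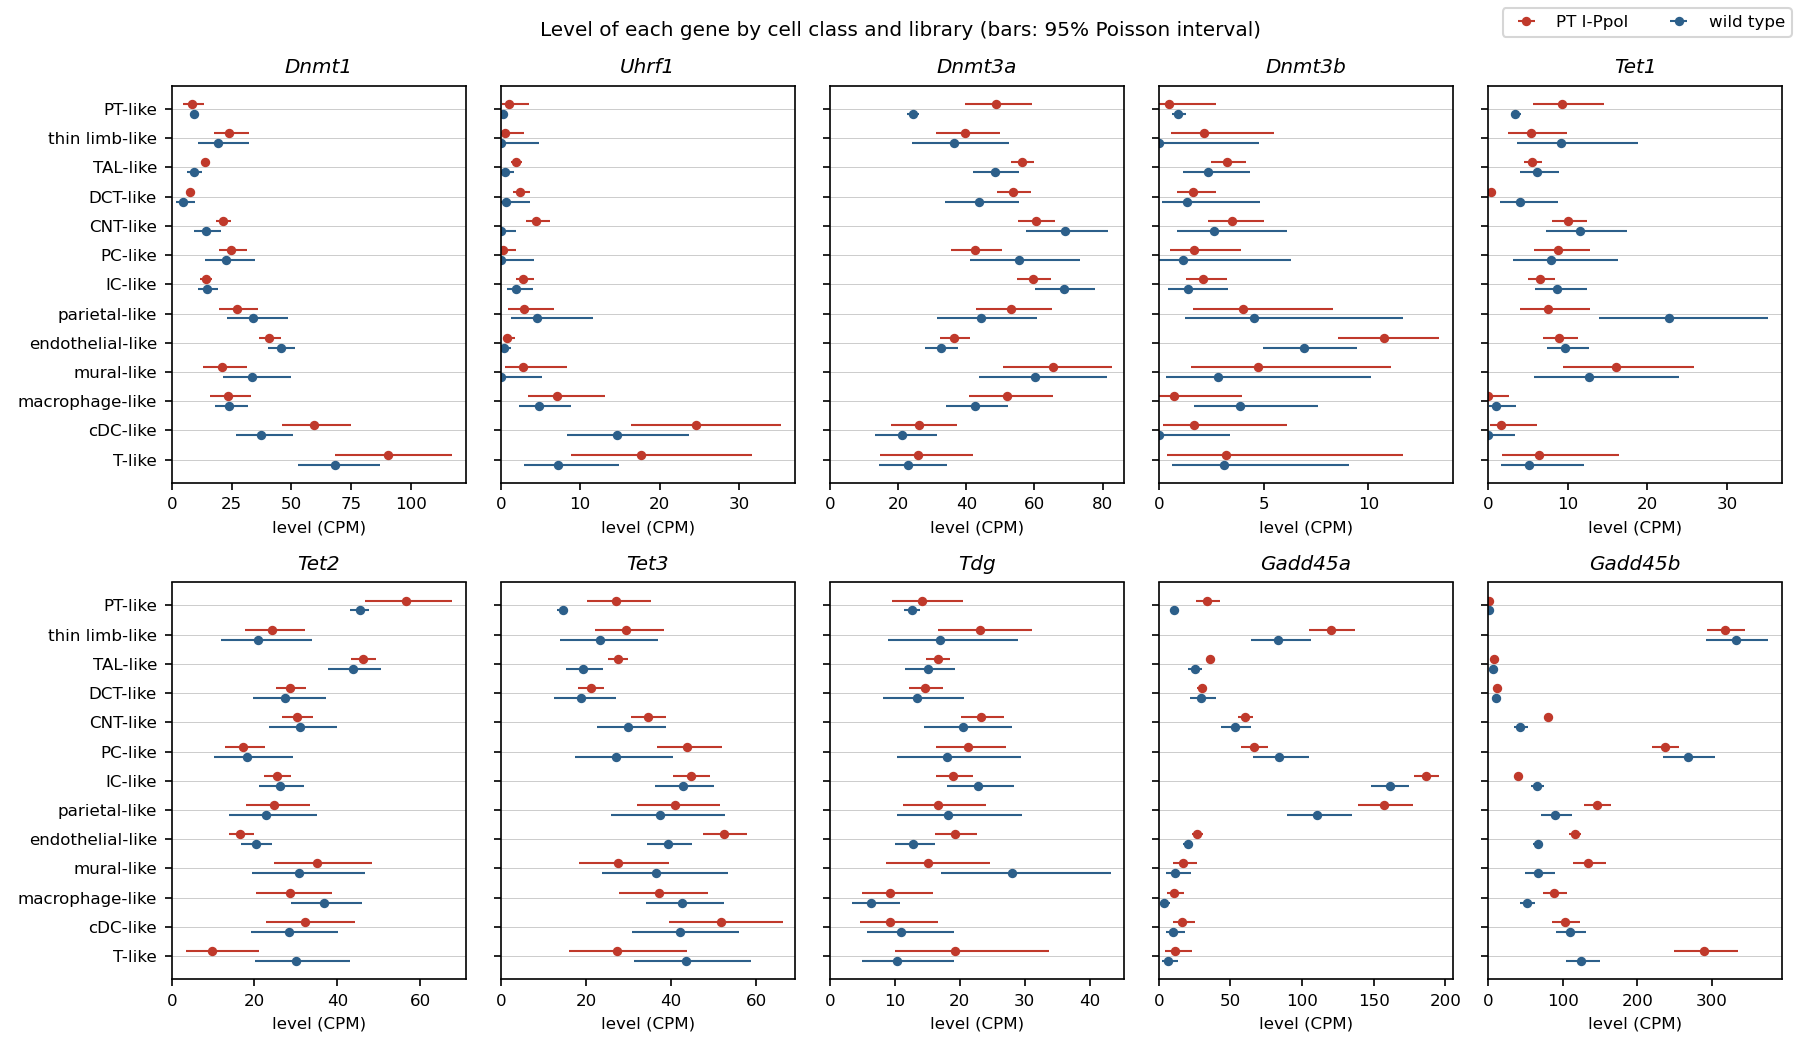
Level of each of the 10 genes (x axis, CPM from 0, a scale of its own per gene) in 13 cell classes (y axis) in PT I-PpoI (red) and wild type (blue), with 95% Poisson intervals. Dnmt1 was highest in T-like cells, Uhrf1 in cDC-like cells, Tet2 in PT-like cells, Gadd45a in IC-like cells and Gadd45b in thin limb-like cells, in each library. For these genes the intervals of the first and second class overlapped, except for Gadd45a in both libraries and Dnmt1 in wild type.

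Dnmt1, the maintenance methyltransferase, was highest in T-like cells among the 13 compared classes, at 90.2 CPM in PT I-PpoI (56 UMIs, interval 68.1 to 117) and 68.3 CPM in wild type (66 UMIs, 52.9 to 86.9). NK-like cells, too few to compare, held 0 UMIs in 12 PT I-PpoI cells and had 69.6 CPM in wild type (27 UMIs). In PT I-PpoI cDC-like cells came second, at 59.3 CPM (46.2 to 74.9), with an interval that overlapped that of T-like cells. In wild type they had 37.5 CPM. The Dnmt1 level in endothelial-like cells was 40.8 CPM in PT I-PpoI and 45.5 CPM in wild type. DCT-like cells (distal convoluted tubule) were lowest, at 7.83 CPM in PT I-PpoI and 4.69 CPM in wild type. PT-like cells had 8.35 and 9.29 CPM in PT I-PpoI and wild type, with intervals that overlapped those of DCT-like cells. The order of classes was alike in both libraries, with a Spearman correlation of 0.907 over 13 classes that share the libraries' depth.

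Uhrf1, which guides DNMT1 to replicated DNA, was highest in cDC-like cells, at 24.6 CPM in PT I-PpoI (29 UMIs, 16.5 to 35.3) and 14.6 CPM in wild type (16 UMIs, 8.36 to 23.7). T-like cells followed with 17.7 CPM in PT I-PpoI and 7.25 CPM in wild type. The intervals of cDC-like and T-like cells overlapped in each library. In wild type no Uhrf1 UMI was read in CNT-like (connecting tubule), PC-like (principal cell), mural-like and thin limb-like cells. For the CNT-like class, this leaves an upper Poisson limit of 1.94 CPM.

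Both maintenance genes had higher levels in cells that carried cell cycle transcripts, though for Dnmt1 in the wild-type cycling cluster the interval covered 0. In the cycling cluster, Uhrf1 had 66.9 CPM in 31 PT I-PpoI cells, against 2.77 CPM in the other named cells of that library, a log2 ratio of 4.61 (4.05 to 5.10). In wild type it had 39.4 CPM in 18 cycling cells, against 1.02 CPM in the others, a log2 ratio of 5.40 (3.60 to 6.58). Dnmt1 had 56.3 CPM in cycling and 19.6 CPM in other cells of PT I-PpoI, a log2 ratio of 1.54 (0.97 to 2.03). In wild type the cycling cells held 5 Dnmt1 UMIs, and the interval of the log2 ratio of 1.37 ran from -0.40 to 2.46. The cycling clusters held different cells: TAL markers summed to 8318 CPM in PT I-PpoI and 780 CPM in wild type, and PT markers to 1199 and 10568 CPM. Of all genes tested, 21.9% of those in PT I-PpoI were 2-fold or more higher in the cycling cluster, and 36.1% of those in wild type.

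The same was seen when all named cells were divided by their UMIs of 8 cycling markers, a list without the 10 genes. Uhrf1 had 52.2 CPM in the 128 PT I-PpoI cells with 2 or more such UMIs and 1.72 CPM in the 4976 cells with fewer. In wild type it had 43.9 CPM in 76 cells with 2 or more and 0.565 CPM in 11749 cells with fewer. Dnmt1 had 74.4 CPM in PT I-PpoI cells with 2 or more and 18.2 CPM in those with fewer, a log2 ratio of 2.04 (1.79 to 2.27), and in wild type the log2 ratio was 2.32 (1.90 to 2.69). Tet1 had 2.77 CPM in PT I-PpoI cells with 2 or more, on 6 UMIs, and 6.15 CPM in those with fewer. Gadd45a had 40.2 and 72.7 CPM in these cells, a log2 ratio of -0.85 (-1.18 to -0.55). In wild type the Gadd45a interval of -1.43 to 0.20 covered 0. Deeper cells can reach 2 UMIs more easily, and the part of depth in this division was not tested.

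**Figure D2:**
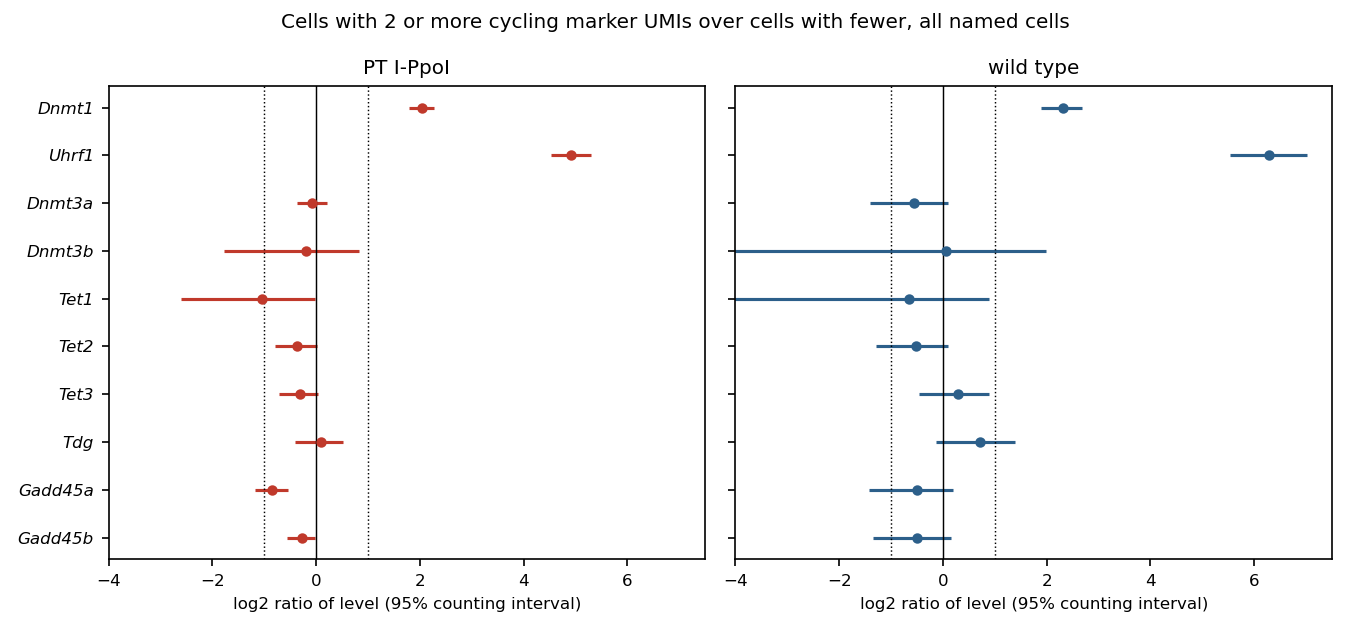
Log2 ratio of the level (x axis) of each gene (y axis) in cells with 2 or more UMIs of cycling markers over cells with fewer, in PT I-PpoI (left) and wild type (right), with 95% counting intervals that are drawn only as far as the axis. Uhrf1 and Dnmt1 lie to the right of the dotted 2-fold line in both panels.

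RefSeq promoter windows (GRCm38.p6, 250 bases before a transcript start) were found for all 10 genes, 15 windows in all. The windows of Dnmt1 and Uhrf1 below are shown because these genes had the highest ratios in cells with cell cycle transcripts and because each holds an E2F motif, searched on both strands as TTTCGCGC or TTTGGCGC. The motif is in capitals and reads TTTCGCGC on the opposite strand in Dnmt1.
Dnmt1, chr9:20952624-20952873, minus strand: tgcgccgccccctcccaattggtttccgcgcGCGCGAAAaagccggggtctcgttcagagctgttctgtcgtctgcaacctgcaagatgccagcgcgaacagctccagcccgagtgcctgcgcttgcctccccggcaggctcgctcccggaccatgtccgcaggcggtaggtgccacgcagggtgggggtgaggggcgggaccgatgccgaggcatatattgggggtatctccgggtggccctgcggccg
Uhrf1, chr17:56304063-56304312, plus strand: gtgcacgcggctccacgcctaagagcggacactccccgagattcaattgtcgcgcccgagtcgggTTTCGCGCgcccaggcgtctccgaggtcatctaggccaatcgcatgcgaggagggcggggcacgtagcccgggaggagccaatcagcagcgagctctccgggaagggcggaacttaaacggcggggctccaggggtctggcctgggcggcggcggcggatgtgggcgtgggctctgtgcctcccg
The match spans positions -219 to -212 from the start in Dnmt1 and -185 to -178 in Uhrf1. Of 32851 windows of this length, 0.654% hold either form. No other window of the 10 genes held it, and a match is a description of letters, not of binding. In Tdg 1 cyclic AMP response element, TGACGTCA, was found, a motif present in 1.55% of windows. The Gadd45a and Gadd45b windows held none of the AP-1 (TGANTCA), cyclic AMP response element, E2F and NF-kB motifs.

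Between the libraries, Uhrf1 was the gene most often 2-fold or more higher in PT I-PpoI. It was so in 5 of the 8 classes in which it had 10 or more UMIs, with an interval above 0 in 2. This count has no share of all genes to set beside it. The minimum is summed over both libraries, and CNT-like, TAL-like and DCT-like cells met it with at most 2 wild-type UMIs. These classes held 8269817, 18748737 and 8680481 UMIs of PT I-PpoI, against 1903748, 4247266 and 1491257 of wild type. Under the minimum, the log2 ratio was -0.69 in parietal-like, -0.16 in PC-like, 0.31 in thin limb-like, 0.99 in endothelial-like and 2.24 in mural-like cells. Depth was evened by thinning cells of 2000 or more UMIs to 2000 each. Uhrf1 was then read in 0 of 119 T-like, 0 of 481 DCT-like and 0 of 162 PT-like cells of PT I-PpoI. In wild type it was read in 3 of 272, 1 of 180 and 3 of 3663. For CNT-like cells the counts were 6 of 450 in PT I-PpoI and 0 of 207 in wild type. For TAL-like cells they were 5 of 1271 and 0 of 527. The values below are from unthinned cells. In CNT-like cells 37 UMIs were read in PT I-PpoI, against 0 in wild type, and the interval of the log2 ratio began at 1.13. Set against a floor of 3 counts in wild type, the level was 2.84-fold higher, which is not a lower limit. In this class 4.09% of all genes were higher. In TAL-like cells (thick ascending limb) there were 36 UMIs in PT I-PpoI, against 2 in wild type, a log2 ratio of 1.73 (0.07 to 5.13), with 3.76% of genes higher. In DCT-like cells there were 21 UMIs in PT I-PpoI, against 1 in wild type, a log2 ratio of 1.30 (-0.79 to 7.22), also with 3.76% of genes higher. The CNT-like class differed in its own markers, which summed to 14057 CPM in PT I-PpoI and 41453 CPM in wild type. With doublets kept, part of these cells, led by Kcnh5, Mgat4c, Spock3 and Col26a1, took the PC-like name (324 from PT I-PpoI, 112 from wild type). The CNT-like class then had 219 and 128 cells in PT I-PpoI and wild type, and Uhrf1 stayed past 2-fold. The part of this mix in the result was not tested. A single DCT-like cell held 8 of those 21 UMIs, and a single CNT-like cell held 7 of the 37. PT-like cells had 2 and 10 UMIs in PT I-PpoI and wild type, at 0.983 and 0.299 CPM, with an interval of -1.51 to 3.95.

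In T-like cells Uhrf1 had 17.7 CPM in PT I-PpoI and 7.25 CPM in wild type, on 11 and 7 UMIs, a log2 ratio of 1.25 (-0.21 to 2.89), where 7.26% of genes were higher. Cells with 2 or more cycling marker UMIs made up 12% of T-like cells in PT I-PpoI, against 2.14% in wild type. Without them 2 and 4 Uhrf1 UMIs were left in PT I-PpoI and wild type, and the log2 ratio was 0.06 (-3.56 to 2.71). In DCT-like cells, where 8 PT I-PpoI cells and 0 wild-type cells were left out, the log2 ratio was 0.43, on 11 UMIs in PT I-PpoI, against 1 in wild type. In CNT-like cells 27 UMIs were left in PT I-PpoI, against 0 in wild type. In TAL-like cells 30 were left in PT I-PpoI, against 2 in wild type, and the interval of the log2 ratio of 1.48 (-0.20 to 4.89) covered 0. Before this step, TAL-like cluster 1 held 34 Uhrf1 UMIs in its 821 PT I-PpoI cells, and cluster 4 held 0 in its 316. The cell cycle list differed most in T-like cells. There all 20 of its genes had log2 ratios above 0, with a median of 1.29, where 59.6% of all genes were above 0. Its median was 0.69 in DCT-like, 0.41 in CNT-like and 0.31 in TAL-like cells, the last with an interval of -0.07 to 0.72. In PT-like cells it was 0.26, under the 0.32 over all genes. In cDC-like cells, where Uhrf1 did not pass 2-fold, all 20 genes were above 0, with a median of 0.76.

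Dnmt1 passed 2-fold in none of 13 classes. Its log2 ratios ran from -0.69 in mural-like cells to 0.66 in cDC-like cells, where it had 59.3 CPM in PT I-PpoI and 37.5 CPM in wild type. Without cells of 2 or more cycling marker UMIs, the cDC-like values were 31.2 CPM in PT I-PpoI and 24.7 CPM in wild type, and the interval of the log2 ratio ran from -0.56 to 1.24. In TAL-like cells the Dnmt1 log2 ratio was 0.58 (0.11 to 1.12) with all cells and 0.56 (0.08 to 1.10) without those cells. In CNT-like cells it was 0.58 (0.01 to 1.24) and 0.51 (-0.06 to 1.175).

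Dnmt3a, a de novo methyltransferase, was read in every class. A pseudogene, Dnmt3a-ps1, has no row in the tables, so the gene's counts are uncertain. Dnmt3a was highest in mural-like cells of PT I-PpoI, at 65.4 CPM, and in CNT-like cells of wild type, at 68.8 CPM. T-like and cDC-like cells were lowest, at 25.8 and 26.3 CPM in PT I-PpoI and 22.8 and 21.0 CPM in wild type. Its closest neighbour classes overlapped in all 12 steps of the order in PT I-PpoI and in 11 of 12 in wild type. Dnmt3b, the other de novo enzyme, was highest in endothelial-like cells, at 10.8 CPM in PT I-PpoI (81 UMIs) and 6.94 CPM in wild type (40 UMIs), a log2 ratio of 0.62 (0.07 to 1.22). In all other compared classes Dnmt3b was at or below 4.74 CPM in PT I-PpoI and 4.55 CPM in wild type.

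Of the dioxygenases, Tet2 was highest in PT-like cells, at 56.5 CPM in PT I-PpoI (interval 46.7 to 67.8) and 45.4 CPM in wild type (43.2 to 47.8). TAL-like cells came second with 46.2 CPM in PT I-PpoI and 43.8 CPM in wild type, with intervals that overlapped those of PT-like cells. The PT-like level was uneven within the class. In wild type Tet2 had 14.0 and 13.2 CPM in PT-like clusters 22 and 31 and 6.997 CPM in cluster 32, which hold most of the class's cells, under the 18.1 CPM of PC-like cells, the lowest class. The other clusters had higher levels, at 67.4 CPM in cluster 6, 52.0 in cluster 29, 50.8 in cluster 33, 66.5 in cluster 34 and 198 in cluster 30. Cluster 6, which holds most PT-like cells of PT I-PpoI, had 58.5 CPM there. Tet3 was highest in endothelial-like cells of PT I-PpoI, at 52.4 CPM (395 UMIs), and in T-like cells of wild type, at 43.5 CPM (42 UMIs). Tet1 was highest in mural-like cells of PT I-PpoI, at 16.1 CPM (17 UMIs), and in parietal-like cells of wild type, at 22.7 CPM (20 UMIs). For both genes, neighbouring classes overlapped in all 12 steps of the order in each library, so the counts do not set the highest class apart. Macrophage-like cells held 0 Tet1 UMIs in PT I-PpoI, against 2 in wild type. Tdg, the glycosylase that removes oxidised methylcytosine, stayed between 9.27 and 23.3 CPM in PT I-PpoI and between 6.27 and 28.0 CPM in wild type, and no neighbouring classes in its order were apart beyond their intervals. The 3′ end of Tdg is overlapped on the other strand by Glt8d2, and a pseudogene, Tdg-ps, has no row in the tables, so its counts are uncertain.

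Gadd45a and Gadd45b respond to stress and DNA damage. Gadd45a was highest in IC-like cells (intercalated cells of the collecting duct), at 187 CPM in PT I-PpoI (1767 UMIs) and 161 CPM in wild type (574 UMIs). Parietal-like cells had 157 CPM in PT I-PpoI and 110.3 CPM in wild type, and macrophage-like cells were lowest at 10.7 and 3.86 CPM. Gadd45b was highest in thin limb-like cells, at 318 CPM in PT I-PpoI and 332 CPM in wild type. A single thin limb-like cell held 109 of the 593 UMIs in PT I-PpoI, and a single one held 57 of the 255 in wild type. T-like cells came second in PT I-PpoI, at 289.9 CPM with an interval that overlapped that of thin limb-like cells, and PC-like cells followed at 238 CPM. In wild type PC-like cells came second, at 268 CPM, with an interval that overlapped that of thin limb-like cells. There a single PC-like cell held 51 of the 237 Gadd45b UMIs. It was lowest in PT-like cells, at 1.97 CPM in PT I-PpoI (4 UMIs) and 1.49 CPM in wild type (50 UMIs). The estimated free RNA of the PT-like class alone would give 1.42 CPM in PT I-PpoI and 0.774 CPM in wild type, and only the PT I-PpoI interval (0.54 to 5.03) holds its free RNA value. The wild-type interval ran from 1.11 to 1.97 CPM, above the estimate.

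**Figure D3:**
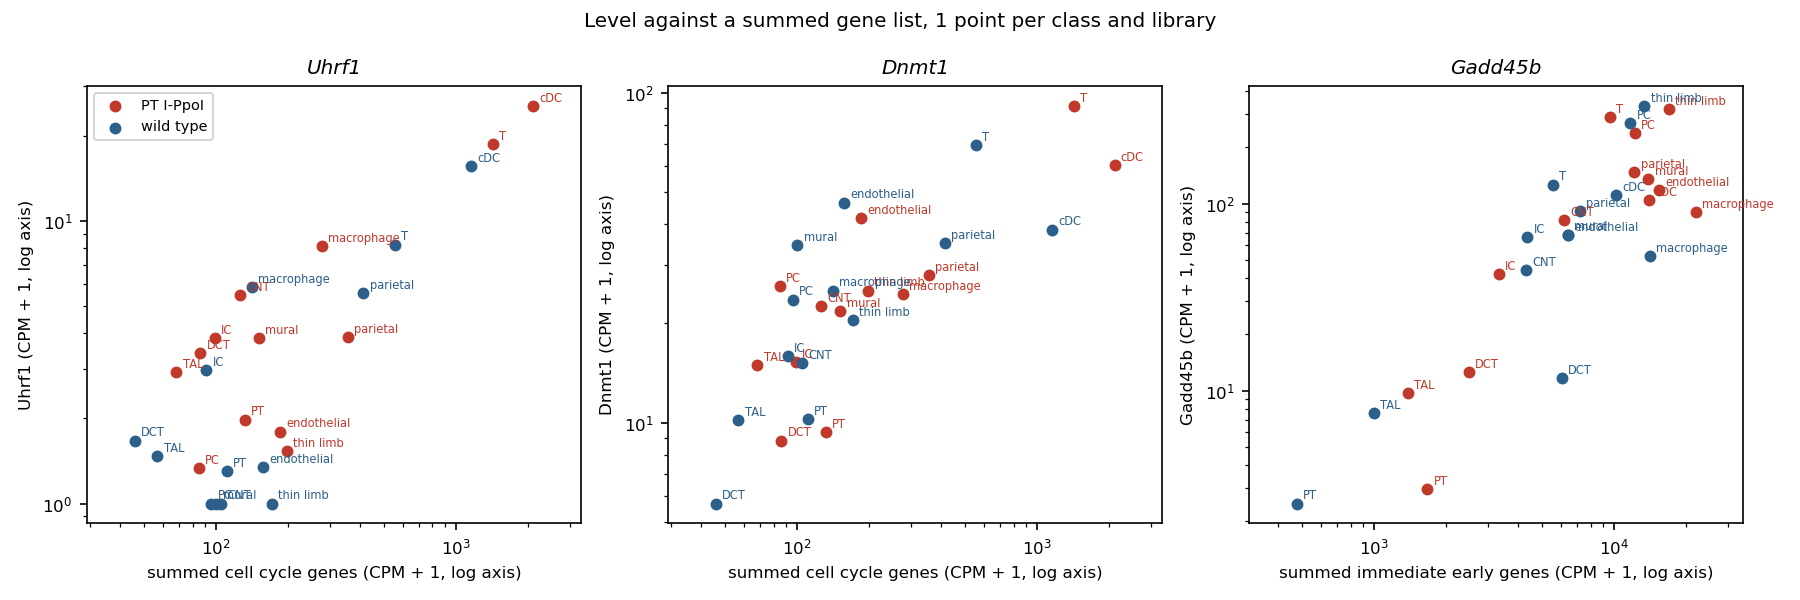
Level of Uhrf1, Dnmt1 and Gadd45b (y axes) against the summed level of a gene list (x axes), both as CPM + 1 on log axes, with 1 point per class and library for PT I-PpoI (red) and wild type (blue). Gadd45b is near the bottom in PT-like and TAL-like cells, where the summed immediate early genes are also low.

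Across the 26 points given by 13 classes and 2 libraries, Gadd45b followed the summed immediate early genes, with a Pearson correlation of 0.87 of log2(CPM + 1). Its correlation with the summed p53 target genes was nearly as high, at 0.82. Gadd45a had correlations of 0.02 and 0.27 with these lists. The genes most like Gadd45b among 9221 were Snw1 (0.948), Ppp1r15a (0.947) and Junb (0.945). Uhrf1 and Dnmt1 followed the summed cell cycle genes, with correlations of 0.79 and 0.78. The genes most like Uhrf1 were Ezh2, Top2a and Birc5, with 0.887, 0.876 and 0.861, and those most like Dnmt1 were Selenoh, Zc3hav1 and Tcof1. Points of 1 library share its depth and free RNA, and points of 1 class share its cell type, so these values describe the libraries only.

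In PT-like cells, in which the enzyme is expressed by design, 4 of the 10 genes were 2-fold or more higher in PT I-PpoI and none was lower, where 16.2% of all genes were higher and 5.24% lower. The 4 were Uhrf1, Dnmt3a, Tet1 and Gadd45a. Dnmt3a had 48.6 CPM in PT I-PpoI and 24.3 CPM in wild type, a log2 ratio of 1.01 (0.69 to 1.30). Tet1 had 9.34 CPM in PT I-PpoI and 3.43 CPM in wild type, on 19 and 115 UMIs, a log2 ratio of 1.47 (0.66 to 2.15). Gadd45a had 33.4 CPM in PT I-PpoI and 10.6 CPM in wild type, on 68 and 356 UMIs, a log2 ratio of 1.66 (1.26 to 2.03). Tet3 had 27.0 and 14.5 CPM in PT I-PpoI and wild type, a log2 ratio of 0.91 (0.47 to 1.30). The median over the 10 genes was 0.73, and over all genes 0.32.

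The PT-like class was made of different clusters in the 2 libraries. Cluster 6, whose leading genes include the transporters Slc34a3, Slc5a12 and Slc6a19, took in 67.9% of the class in PT I-PpoI, 114 of 168 cells, but 13.0% in wild type, 768 of 5929 cells. Most of the other wild-type cells were in clusters 31, 22, 32, 29 and 33, with 1559, 1224, 979, 581 and 462 cells, to which PT I-PpoI gave 4, 28, 1, 8 and 3 cells. Within wild type, Tet1 had 9.98 CPM in cluster 6 and 0.361 to 3.42 CPM in these 5 clusters, and Dnmt3a had 45.3 CPM in cluster 6 and 10.3 to 25.6 CPM in the 5.

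Within cluster 6, the difference in Gadd45a was as large as in the whole class, and those in Dnmt3a, Tet1 and Tet3 were smaller. Gadd45a had 32.6 CPM in PT I-PpoI (49 UMIs) and 10.2 CPM in wild type (81 UMIs), a log2 ratio of 1.68 (1.13 to 2.20). Dnmt3a had 56.5 CPM in PT I-PpoI and 45.3 CPM in wild type, a log2 ratio of 0.32 (-0.04 to 0.66). Tet1 had 10.6 and 9.98 CPM in PT I-PpoI and wild type, a log2 ratio of 0.13 (-0.78 to 0.88), and Tet3 had 29.9 and 28.8 CPM, a log2 ratio of 0.07 (-0.44 to 0.52). Of the 9 genes with 10 or more UMIs there, Gadd45a was higher and Dnmt3b was lower, on 1 UMI in PT I-PpoI, against 17 in wild type with an interval of -7.08 to 0.98, where 7.44% of all genes were higher and 2.8% lower. The median over those 9 genes was 0.07 and over all genes 0.22.

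**Figure D4:**
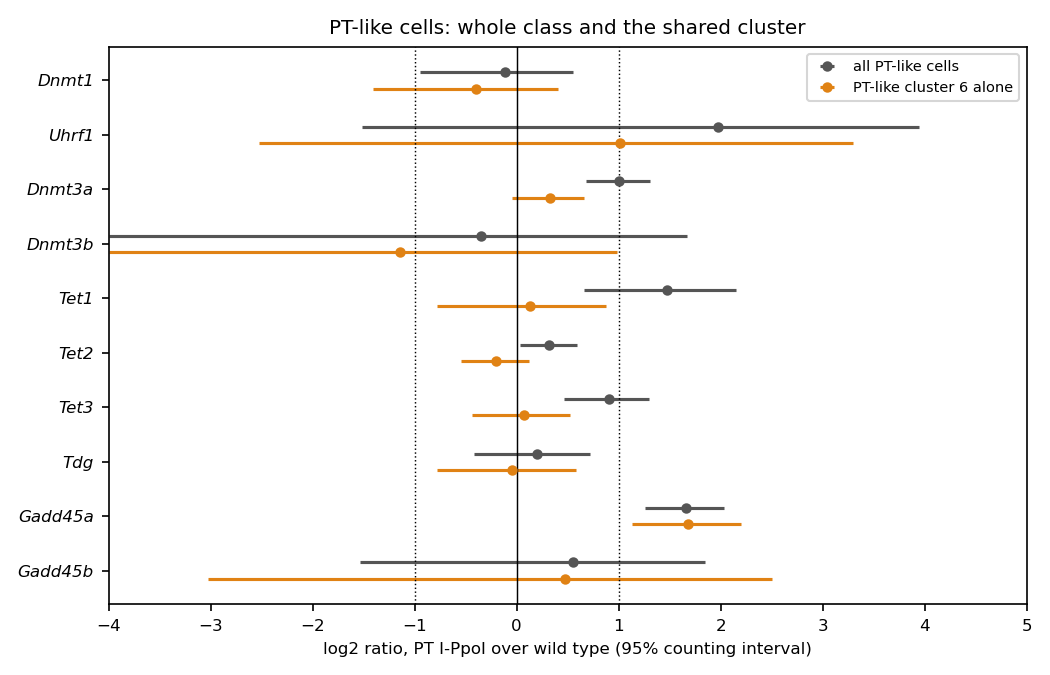
Log2 ratio of PT I-PpoI over wild type (x axis) for each gene (y axis) in all PT-like cells (grey) and in PT-like cluster 6 alone (orange), with 95% counting intervals drawn as far as the axis and dotted lines at 2-fold. Gadd45a stays at 1.66 and 1.68, while Dnmt3a, Tet1 and Tet3 lie nearer to 0 in cluster 6.

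Other measures moved with Gadd45a in these cells. Free RNA would give 2.28 CPM of it in PT I-PpoI and 1.60 CPM in wild type, against the 33.4 and 10.6 CPM read. In cluster 6, all 19 immediate early and dissociation genes with enough UMIs had log2 ratios above 0, with a median of 1.12, and their sum was 2080 CPM in PT I-PpoI and 911 CPM in wild type. Of all genes in cluster 6, 70.5% had ratios above 0, with a median of 0.22. All 12 p53 target genes with enough UMIs there also had ratios above 0, with a median of 0.52 and sums of 423 CPM in PT I-PpoI and 291 CPM in wild type. Median depth in cluster 6 was 12405 UMIs in PT I-PpoI, against 9142 in wild type. The part of these measures in the result was not tested.

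Outside PT-like cells, Gadd45a was 2-fold or more higher in macrophage-like cells alone among 12 classes, at 10.7 CPM in PT I-PpoI and 3.86 CPM in wild type. These values rest on 15 and 8 UMIs, with an interval of 0.14 to 2.92, and 6.29% of genes were higher there. With cells called by depth alone the log2 ratio was 0.27. In IC-like cells, where its level was highest, the log2 ratio was 0.21 (0.08 to 0.35). It was 0.50 (0.21 to 0.81) in TAL-like and 0.51 (0.17 to 0.86) in parietal-like cells. In thin limb-like and endothelial-like cells it was 0.52 (0.12 to 0.95) and 0.42 (0.08 to 0.76). With PT-like cells counted, the Gadd45a level was higher in PT I-PpoI in 12 of 13 classes, with an interval above 0 in 7. In PC-like cells it was lower, with a log2 ratio of -0.34 (-0.72 to 0.07).

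Gadd45b was 2-fold or more higher in T-like cells, at 289.9 CPM in PT I-PpoI (180 UMIs) and 125 CPM in wild type (121 UMIs), a log2 ratio of 1.21 (0.87 to 1.55). With free RNA subtracted this ratio was 0.96. In mural-like cells it had 135 CPM in PT I-PpoI and 67.3 CPM in wild type, a log2 ratio of 0.99 (0.52 to 1.50), and in endothelial-like cells 117 and 66.6 CPM, a log2 ratio of 0.81 (0.63 to 0.99). The endothelial-like clusters differed. Cluster 9, with 368 PT I-PpoI and 1413 wild-type cells, had 106 CPM in PT I-PpoI and 48.4 CPM in wild type, a log2 ratio of 1.14 (0.81 to 1.47). Cluster 7, with 341 PT I-PpoI and 421 wild-type cells, had 139 and 112 CPM, a log2 ratio of 0.30 (0.07 to 0.55). IC-like cells had a ratio below 0, with 40.9 CPM in PT I-PpoI and 65.5 CPM in wild type, a log2 ratio of -0.68 (-0.92 to -0.44). The summed immediate early genes went the same way in these 4 classes, with 9607 CPM in PT I-PpoI and 5576 CPM in wild type in T-like cells, 13951 and 6430 CPM in mural-like cells, 15382 and 6442 CPM in endothelial-like cells, and 3314 and 4361 CPM in IC-like cells. Gadd45b was also higher, by less than 2-fold, in CNT-like cells, with a log2 ratio of 0.90 (0.57 to 1.26). In macrophage-like and parietal-like cells it was 0.79 (0.40 to 1.17) and 0.69 (0.33 to 1.08). The summed immediate early genes had 6227 CPM in PT I-PpoI and 4314 CPM in wild type in CNT-like cells. They had 21928 and 14143 CPM in macrophage-like cells, and 12180 and 7240 CPM in parietal-like cells. These genes did not follow Gadd45b in every class. In cDC-like cells they were 13962 CPM in PT I-PpoI and 10216 CPM in wild type, while Gadd45b had 103 and 110 CPM, and in thin limb-like cells 16954 and 13423 CPM, while Gadd45b had 318 and 332 CPM. In DCT-like cells they were 2480 CPM in PT I-PpoI and 6073 CPM in wild type, while Gadd45b had 11.5 and 10.7 CPM. The part of these genes, which also respond to tissue digestion, was not tested.

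Of the dioxygenases, 2 were 2-fold or more lower in a class. Tet2 had 9.66 CPM in T-like cells of PT I-PpoI (6 UMIs) and 30.0 CPM in those of wild type (29 UMIs), a log2 ratio of -1.54 (-3.19 to -0.34), where 7.3% of genes were lower. Tet1 had 7.49 CPM in parietal-like cells of PT I-PpoI (13 UMIs) and 22.7 CPM in those of wild type (20 UMIs), a log2 ratio of -1.58 (-2.73 to -0.52), where 3.02% were lower. With cells thinned to 2000 UMIs each, Tet2 was read in 5 of 119 T-like cells of PT I-PpoI and 15 of 272 of wild type. These shares were less than 2-fold apart, and their 95% intervals overlapped (1.38% to 9.53% and 3.12% to 8.93%). The Tet2 difference turned its direction, to 0.38, when cells were called by depth alone. That setting left 26 T-like cells in PT I-PpoI, against 36 in wild type. In DCT-like cells Tet1 had 0.346 CPM in PT I-PpoI (3 UMIs) and 4.02 CPM in wild type (6 UMIs), a log2 ratio of -3.43 (-6.17 to -1.31), under the minimum of 10 UMIs and so not counted. Tet3 passed 2-fold in none of 13 classes, with a log2 ratio of 0.41 (0.17 to 0.65) in endothelial-like cells.

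**Figure D5:**
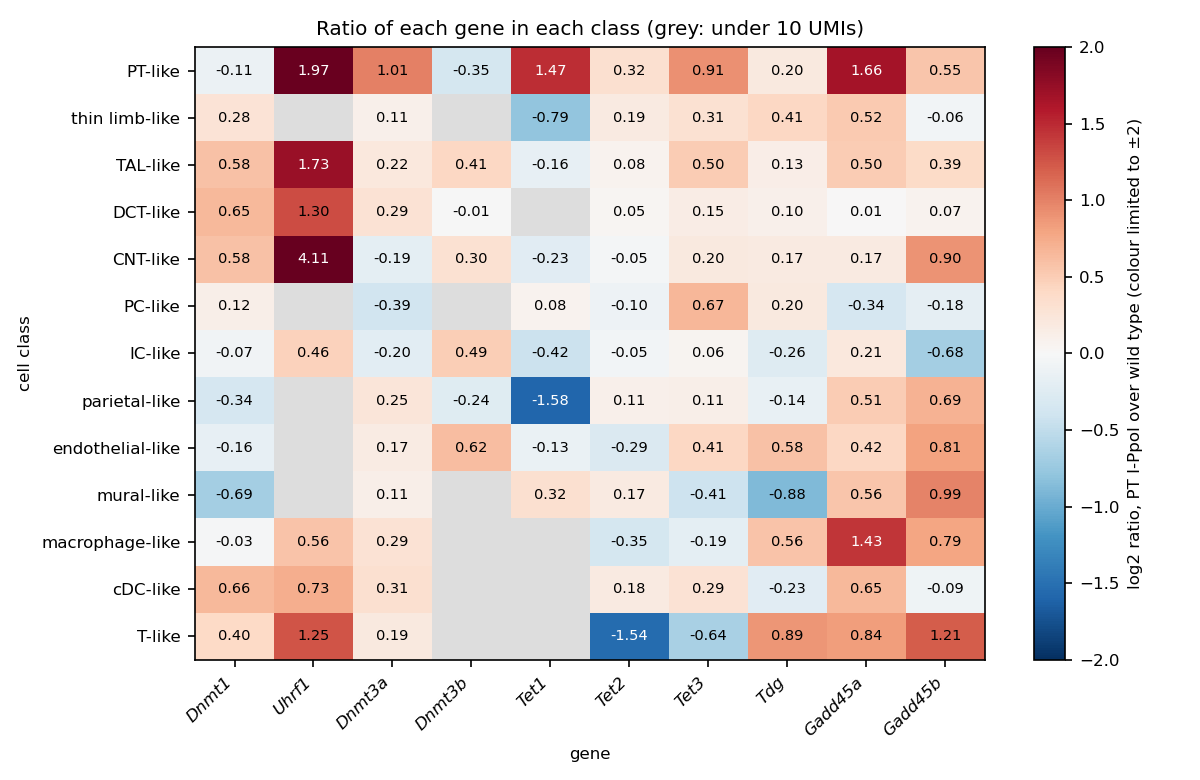
Log2 ratio of PT I-PpoI over wild type for each gene (columns) in each class (rows), with the value printed, colour limited to 2 in either direction and grey where both libraries together had under 10 UMIs. The value of 4.11 for Uhrf1 in CNT-like cells depends on the prior count because wild type had 0 UMIs.

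Over all 13 classes, 115 of the 130 pairs of gene and class had 10 or more UMIs, and 10 of them were 2-fold or more higher in PT I-PpoI and 2 lower. Over the 13 classes, the share of all genes ran from 2.29% to 16.2% for higher and from 3.02% to 7.3% for lower. The interval covered 0 in 84 pairs, a count with no share of all genes to set beside it. In the tubular classes not given above, the share of all genes higher and lower was 2.29% and 6.39% in IC-like cells, 5.75% and 4.04% in PC-like cells and 6.06% and 3.89% in thin limb-like cells, and none of the 10 genes passed 2-fold there. The same held in endothelial-like cells, with 6.3% of all genes higher and 5.71% lower, in mural-like cells, with 7.27% and 4.51%, and in cDC-like cells, with 8.18% and 4.57%. None of the 10 with enough UMIs was lower by 2-fold in CNT-like, DCT-like and macrophage-like cells, where 5.78%, 6.62% and 6.36% of all genes were, and none was higher in parietal-like cells, where 5.31% were. TAL-like cells had a median over the 10 genes of 0.40, against 0.09 over all genes, with most PT I-PpoI cells in cluster 1 (821 cells) and most wild-type cells in cluster 18 (642 cells). The medians were 0.41 in endothelial-like cells, 0.43 in macrophage-like cells and 0.62 in T-like cells, against 0.19, 0.12 and 0.12 over all genes. In these 3 classes, in TAL-like and in PT-like cells the order-statistic interval of the median held the all-gene value, and ran from -0.16 to 0.62, from -0.35 to 1.43 and from -1.54 to 1.25 in endothelial-like, macrophage-like and T-like cells. Under the other settings these 3 medians fell as low as 0.10, 0.13 and 0.13.

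Other genes of DNA methylation were read from 6 lists. In PT-like cells all 8 methyl-CpG readers had log2 ratios above 0, with a median of 0.52, and 1 of them was 2-fold or more higher, where 69.8% of all genes were above 0 and 16.2% were 2-fold higher. In cluster 6 these 8 were also above 0, with a median of 0.47 and none 2-fold higher, where 70.5% of all genes were above 0. Of the genes of methyl donor supply, Mtr, which remakes methionine, had PT-like levels of 40.3 CPM in PT I-PpoI and 19.9 CPM in wild type, a log2 ratio of 1.03 (0.67 to 1.35). In cluster 6 alone Mtr had 48.5 CPM in PT I-PpoI and 33.8 CPM in wild type, and the log2 ratio of 0.53 (0.13 to 0.90) was under 2-fold. Ahcy, which clears S-adenosylhomocysteine, had 6.88 CPM in PT I-PpoI (14 UMIs) and 20.9 CPM in wild type (699 UMIs), a log2 ratio of -1.55 (-2.48 to -0.84). In cluster 6 it had 3.33 CPM in PT I-PpoI (5 UMIs) and 11.5 CPM in wild type (91 UMIs), a log2 ratio of -1.66 (-3.45 to -0.51). Base excision repair genes had a median of 0.58 over 8 genes in PT-like cells and 0.32 over 7 in cluster 6.

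Gadd45g, the third gene of the GADD45 family, was 2-fold or more higher in endothelial-like cells, at 493 CPM in PT I-PpoI and 167 CPM in wild type, a log2 ratio of 1.56 (1.46 to 1.66), where 6.3% of genes were higher. It also passed 2-fold in macrophage-like cells, at 602 and 284 CPM, and in cDC-like cells, at 119 and 45.7 CPM, where 8.18% of genes were higher, and in T-like cells, at 30.6 and 8.28 CPM on 19 and 8 UMIs. It was lower in PT I-PpoI, by less than 2-fold, in PC-like cells, at 160 and 238 CPM, a log2 ratio of -0.58 (-0.81 to -0.33), and in IC-like cells, with a log2 ratio of -0.43 (-0.63 to -0.23). In PT-like cells its log2 ratio was 0.98 (0.73 to 1.23). Idh1, which makes the TET cofactor 2-oxoglutarate, had 13.8 CPM in TAL-like cells of PT I-PpoI and 37.2 CPM in those of wild type, a log2 ratio of -1.43 (-1.72 to -1.13), where 4.95% of genes were lower. PT markers summed to 63.7 CPM in TAL-like cells of PT I-PpoI and 934 CPM in those of wild type. Free RNA was estimated at 4.74% and 14.7% of their UMIs. The part of free RNA in the Idh1 value was not tested. Pcna, the replication clamp that binds DNMT1, had 52.8 CPM in macrophage-like cells of PT I-PpoI and 17.9 CPM in those of wild type, and 78.9 and 35.2 CPM in T-like cells, with log2 ratios of 1.55 and 1.16. Cells with 2 or more cycling marker UMIs were 3.98% of the macrophage-like class in PT I-PpoI, against 0.292% in wild type, and the cell cycle list had a median of 1.15 there. The part of cycling cells in the Pcna values was not tested.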

How the data were processed

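Unfiltered tables of raw UMI counts per gene and barcode were used as deposited. Kit v3.1 is per the labels' protocols, Cell Ranger 3.1, Seurat 3 and mm10 are per the submitters' processing notes, and Cell Ranger 4 is per the file headers. The difference between the Cell Ranger versions was not resolved. In total 93257620 UMIs were counted for PT I-PpoI, and the wild-type table has 107977310.

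Cells were called by depth (thresholds of 5651 and 3655 UMIs in PT I-PpoI and wild type) or by a Monte Carlo test against free RNA for barcodes of 500 or more UMIs. Barcodes with under 200 genes or over 50% mitochondrial UMIs were left out, and Scrublet removed 75 PT I-PpoI and 269 wild-type doublets. Clustering (scanpy 1.11.5, Leiden resolution 1) left out the 10 genes, and clusters were named from 3 or more detected markers. UMIs were summed per class and library. A prior of 0.5 count was added before each ratio, whose 95% interval is the exact conditional binomial one, and 1 library per genotype allows no test. The calculation was tested on simulated data. edgeR 4.0.16 gave TMM scaling as an alternative only. All 10 genes are named, and from each other list up to 4 per class by the size of their ratio, among those that reached 30 UMIs in at least 1 library. A gene of these lists is not reported here. Gadd45g was followed in all classes after its values were seen. The genes and lists were chosen with earlier results of these data known. Sequences are from RefSeq (GRCm38.p6).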

Additional observations from a re-analysis of the deposited data

How the results depend on the processing

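No paired analysis was possible because each genotype has 1 library. Over the other ways of processing that were tried, 1339 of 1380 values stayed within their 95% intervals, 40 moved further and 1 called value reversed. The reversed value was the log2 ratio of Tet2 in T-like cells, 0.38 with cells called by depth alone. The median of the 10 genes in TAL-like cells was 0.66 when cells were averaged with equal weight, with 0.32 over all genes; the cause was not tested.

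Among PT-like values, Gadd45a stayed 2-fold or more higher in 12 of 12 settings (1.36 to 2.43), Tet1 in 11 of 12 (0.13 to 2.03) and Dnmt3a in 4 of 12 (0.32 to 1.53). Cluster 6 alone, an alternative chosen after seeing the data, gave the lowest values of Tet1 and Dnmt3a. TMM scaling shifted PT-like ratios by -0.30, endothelial-like by -0.19 and cDC-like by -0.17. Uhrf1 kept its 2-fold difference in 10 of 10 settings in CNT-like cells, 11 of 11 in TAL-like, 8 of 11 in DCT-like and 7 of 10 in T-like cells. Clustering the libraries separately gave no value for CNT-like, T-like, mural-like and parietal-like cells. Depth limits Uhrf1, Dnmt3b and Tet1 most, which had under 10 UMIs over both libraries in 5, 6 and 4 of 13 classes.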
